A study of Saccharomyces cerevisiae with 27 samples.

Results

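The genes described here encode the nuclear subunits of the respiratory chain and of the ATP synthase of budding yeast. They were chosen by function, from a fixed list of open reading frames, and 44 of the 6746 genes in the deposited count table belong to it. Cytochrome c oxidase (complex IV) has 10 of them: COX4 (YGL187C), COX5A (YNL052W), COX5B (YIL111W), COX6 (YHR051W), COX7 (YMR256C), COX8 (YLR395C), COX9 (YDL067C), COX12 (YLR038C), COX13 (YGL191W), COX26 (YDR119W-A). The cytochrome bc1 complex (complex III) has 9: QCR2 (YPR191W), QCR6 (YFR033C), QCR7 (YDR529C), QCR8 (YJL166W), QCR9 (YGR183C), QCR10 (YHR001W-A), COR1 (YBL045C), CYT1 (YOR065W), RIP1 (YEL024W). There are 2 cytochromes c: CYC1 (YJR048W), CYC7 (YEL039C). Succinate dehydrogenase (complex II) has 4: SDH1 (YKL148C), SDH2 (YLL041C), SDH3 (YKL141W), SDH4 (YDR178W). The ATP synthase has 13: ATP1 (YBL099W), ATP2 (YJR121W), ATP3 (YBR039W), ATP4 (YPL078C), ATP5 (YDR298C), ATP7 (YKL016C), ATP14 (YLR295C), ATP15 (YPL271W), ATP16 (YDL004W), ATP17 (YDR377W), ATP18 (YML081C-A), ATP19 (YOL077W-A), ATP20 (YPR020W). The last are 3 NADH dehydrogenases, NDI1 (YML120C), NDE1 (YMR145C), NDE2 (YDL085W), and 3 ADP/ATP carriers, AAC1 (YMR056C), PET9 (YBL030C), AAC3 (YBR085W). All 44 passed the filter on low counts and were among the 6209 genes tested.

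Messenger RNA was measured in 27 libraries, 3 for each of 9 groups. All strains were Saccharomyces cerevisiae BY4741 MATa cells with his3Δ200, leu2Δ0, lys2Δ0, trp1Δ63, ura3Δ0, met15Δ0 and can1::MFA1pr-HIS3. In all of them, wild type included, hht1-hhf1 carried NatMX4 and the hht2-hhf2 locus was replaced by a synthetic HHTS-HHFS copy marked with URA3. By this genotype each strain would make its H3 and H4 from that copy, and counts of the histone genes of both loci are given below. The copy encoded wild-type H4, a change of threonine 30 to alanine (H4-T30A) or to aspartate (H4-T30D), or a change of serine 47 to aspartate (H4-S47D), an aspartate being the study's mimic of a phosphorylated residue. Cells grew in rich glucose medium to log phase at 30°C without stress, were heated to 39°C for 10 min (wild type, H4-T30A and H4-T30D), or received 0.4 M NaCl for 15 min (wild type and H4-S47D). Every comparison with unstressed wild type uses the same 3 libraries, although the study's methods name separate wild types for its H4-S47 and H4-T30 strains. The study's methods call the 3 replicates of a condition biological, the labels do not say how they were grown, and p-values measure the spread between these libraries.

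In the respiratory chain, NADH dehydrogenases and succinate dehydrogenase pass electrons to ubiquinone, complex III passes them on to cytochrome c, and complex IV passes them to oxygen. Complexes III and IV pump protons across the inner mitochondrial membrane, and the ATP synthase uses the returning protons to make ATP, which the ADP/ATP carriers exchange for cytosolic ADP. Yeast has no proton-pumping complex I but single-subunit dehydrogenases in its place, NDI1 facing the matrix and NDE1 and NDE2 facing the intermembrane space. On glucose, yeast ferments, and many of these genes are held low. The Hap2/3/4/5 complex, which binds CCAAT, is the best known activator of respiratory genes, and Msn2 and Msn4, which bind AGGGG, activate genes upon many stresses. Some subunits have isoforms: COX5A and COX5B, CYC1 and CYC7, NDE1 and NDE2, and the carriers PET9 (also called AAC2), AAC1 and AAC3. COX5B, CYC7 and AAC3 are known for their expression under hypoxia, and CYC7 encodes the minor iso-2 form of cytochrome c beside the major iso-1 form of CYC1.

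Letters matching the binding motifs of these activators were counted in the 300 bases from 400 to 101 bases before each start codon, on the R64 assembly and on both strands. CCAAT stood in the windows of 38 of the 44 members (86.4%), against 43.9% of 6001 windows of all protein-coding genes. AGGGG stood in 17 of the 44 (38.6%), against 23.5% of all windows. ATTGTT, the core of the site of the hypoxic repressor Rox1, stood in 27.3% of the members' windows and in 31.9% of all windows, and GAANNTTC, a pair of inverted heat shock factor units, in 9.09% and 12.4%. In 2 places in members' windows, hits of different motifs shared bases (COX6 and ATP5). Stretches of 7 windows are shown, for the members with the largest increases upon osmostress (CYC7, COX26, NDE2, COX5B), for COX5A as the partner of COX5B, and for SDH2 and ATP7 as subunits of other complexes, whose levels are given below. Each is written 5′ to 3′ on the coding strand of its gene, with matches in capitals, either to CCAAT, which read from the other strand is ATTGG, or to AGGGG, which read from the other strand is CCCCT, or to ATTGTT.
CYC7, chrV:80157-80317, minus strand: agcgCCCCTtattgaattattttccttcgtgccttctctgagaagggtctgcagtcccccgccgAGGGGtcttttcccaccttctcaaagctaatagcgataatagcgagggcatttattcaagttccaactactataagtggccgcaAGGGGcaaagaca
COX26, chrIV:690704-690804, plus strand: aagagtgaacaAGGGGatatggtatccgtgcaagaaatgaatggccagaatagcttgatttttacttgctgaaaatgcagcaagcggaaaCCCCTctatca
NDE2, chrIV:303041-303081, plus strand: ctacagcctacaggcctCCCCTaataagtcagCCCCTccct
COX5B, chrIX:154972-155072, plus strand: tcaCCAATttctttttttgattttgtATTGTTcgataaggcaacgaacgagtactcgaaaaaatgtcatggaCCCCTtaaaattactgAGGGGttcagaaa
COX5A, chrXIV:531545-531585, plus strand: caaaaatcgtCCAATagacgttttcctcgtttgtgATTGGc
SDH2, chrXII:54041-54101, minus strand: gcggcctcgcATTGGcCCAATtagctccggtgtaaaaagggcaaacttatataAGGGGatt
ATP7, chrXI:408149-408219, minus strand: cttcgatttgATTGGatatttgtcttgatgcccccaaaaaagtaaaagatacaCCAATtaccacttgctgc
The windows of CYC7, COX26 and NDE2 held AGGGG 3, 2 and 2 times and no CCAAT, and that of COX5B held both. COX5A held CCAAT 2 times and no AGGGG. Neither motif was found in the windows of CYC1, COX4 and CYT1. These matches are letters in a window and say nothing of binding there.

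Total counts per library ran from 10212777 to 19503694, and the 44 members together took between 0.391% and 0.901% of them. Levels below are in CPM, the count relative to the library's total after scaling by the trimmed mean of M-values (TMM). No stretch of 50 coding bases of any member, the read length, occurred elsewhere in the genome, and no member overlapped another annotated gene. All 6 markers of MATa cells had counts in every library, with a summed level of 1899 to 1963 CPM in wild type without stress, 1015 to 1151 CPM upon osmostress and 450 to 505 CPM upon heat. The 3 markers of MATalpha cells also had counts in every library, and their sums in these groups were 8.91 to 9.92, 8.01 to 13.2 and 16.7 to 17.6 CPM. The part of the mating-type genes in the results was not tested. HHF2, the replaced copy of the H4 gene, had 2 to 19 counts in 25 libraries, and the counts do not show the H4 residue that a strain carries. The other histone genes of the 2 changed loci had more counts in every library. HHF1 had 211 to 942, HHT1 416 to 2874 and HHT2 609 to 3298 counts, and the origin of these reads was not tested. The wild-type heat library 3 and the H4-S47D osmostress library 1 stood apart: they had 141 and 156 counts of HHF2, 43 and 29 of LYS2 and 63 and 59 of MET15, genes that the genotype lacks, while the H4-T30D library 2 without stress had 32 of MET15. The H4-S47D libraries also held TRP1 at 2449 to 5685 counts, against at most 55 in the others and against the trp1Δ63 label that they share, so that in every comparison with wild type the H4-S47D change and this marker cannot be told apart. Beside each comparison that uses the libraries labelled wild-type heat 3 or H4-S47D osmostress 1, the values without both are given.

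Before stress, levels per kilobase of coding sequence differed widely between members. In wild type without stress, the highest level was that of ATP2, the beta subunit of the ATP synthase, at 589 CPM per kb, followed by PET9, the main ADP/ATP carrier, at 581 CPM per kb. The lowest were NDE2 at 1.33, COX26 at 1.97 and CYC7 at 4.58 CPM per kb. The medians by complex were 145 CPM per kb for complex IV, 107 for complex III, 106 for complex II and 161 for the ATP synthase. The 9 subunits of complex III spanned only a 2.28-fold range, whereas the subunits of complex IV spanned 179-fold, COX26 being the lowest. COX26, a small subunit of complex IV in yeast respiratory supercomplexes, was the only member with a group mean under 10 counts, at 7, 9 and 3 counts in the wild-type libraries without stress.

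The first comparison asked how wild-type cells change these genes upon osmostress. Of the 44 members, 12 rose and 2 fell past 2-fold, where 12.8% and 12.5% of all genes tested rose and fell (edgeR glmTreat, adjusted p under 0.05 over all genes). Members of complex II, part of complex III, the NADH dehydrogenases NDI1 and NDE2, the isoforms COX5B and CYC7 and the complex IV subunit COX26 were those that rose, and CYC1 and AAC3 those that fell. None of the 13 ATP synthase subunits passed. The median log2 fold change was 0.45 over the members and 0.08 over all genes tested. Against a fold change of 0 on the log2 scale, 30 members were higher and 7 lower, where 40.3% and 36.2% of all genes tested were.

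CYC7 was at 1.86, 1.76 and 1.08 CPM without stress and at 136, 147 and 149 CPM upon osmostress. COX26 went from 0.394, 0.546 and 0.25 CPM to 17.7, 18.6 and 21.5 CPM. NDE2, the minor external NADH dehydrogenase, went from 1.8, 2.55 and 2.16 CPM to 31.4, 27.6 and 34.4 CPM. In all 3 genes the groups lay far apart, with log2 fold changes of 6.47 ± 0.13 (SE, n = 3 libraries a group, adjusted p = 6.23e-26 by edgeR glmTreat), 5.52 ± 0.21 (1.16e-18) and 3.84 ± 0.15 (1.52e-17). COX26 had so few counts before stress that its fold change is less well set than its level upon stress.

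COX5B, the hypoxic isoform of subunit 5 of complex IV, was at 14.7, 19.0 and 16.5 CPM without stress and at 112, 117 and 128 CPM upon osmostress, a log2 fold change of 2.83 ± 0.10 (adjusted p = 7.34e-18, edgeR glmTreat). COX5A, the aerobic isoform, was at 81.6, 89.6 and 94.8 CPM without stress and at 92.6, 94.8 and 104 CPM upon osmostress, a difference of 0.13 ± 0.08 on the log2 scale that did not pass even against 0 (adjusted p = 0.127, edgeR). COX5B thus made up 15.9% ± 1.4 (SD, n = 3) of the summed CPM of the pair without stress and 55.1% ± 0.3 upon osmostress. The cytochromes c moved apart further. CYC1 fell from 89.1, 107 and 99.1 CPM to 33.2, 42.3 and 39.9 CPM (log2 fold change −1.36 ± 0.08, adjusted p = 3.9e-05, edgeR glmTreat), and CYC7 went from 1.58% ± 0.48 to 79.0% ± 1.3 of the pair. NDE2 went from 0.490% ± 0.057 to 9.71% ± 1.10 of the external dehydrogenases, with NDE1 at 414, 463 and 440 CPM before and 270, 299 and 300 CPM after.

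AAC3, the hypoxic ADP/ATP carrier, fell from 30.5, 35.4 and 36.1 CPM to 6.24, 6.12 and 6.15 CPM, a 5.50-fold lower level (log2 fold change −2.46 ± 0.11, adjusted p = 6.43e-14, edgeR glmTreat). PET9 was at 496, 600 and 573 CPM before and 479, 465 and 486 CPM after, and AAC1 at 16.8, 20.1 and 23.2 CPM before and 39.9, 37.5 and 40.2 CPM after, neither past the 2-fold test, and the sign of the PET9 difference turned with library totals. Of 5 hypoxic genes that are not members, ANB1 (log2 fold change −1.36) and HEM13 (−1.22) fell past 2-fold, where 12.5% of all genes tested did, and 3 did not pass. Of these 3, HMG2 lay higher upon osmostress, at 86.7 to 109 CPM before and 173 to 188 CPM after, and TIR1 and DAN1 lay lower.

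Among the multi-subunit complexes, succinate dehydrogenase moved most. Its flavoprotein SDH1 went from 84.1, 80.03 and 99.4 CPM to 392, 384 and 413 CPM, its iron-sulfur subunit SDH2 from 41.9, 41.0 and 48.7 CPM to 208, 218 and 221 CPM, and its membrane anchor SDH4 from 75.2, 79.3 and 102 CPM to 275.3, 314 and 305.4 CPM. The stressed libraries lay above all non-stressed ones, at 2.18, 2.30 and 1.81 on the log2 scale. The other anchor, SDH3, was at 0.93 ± 0.08 and did not pass the 2-fold test. In complex III, QCR8 (1.85), RIP1 (1.69), QCR10 (1.66) and CYT1 (1.52) rose, RIP1 being the Rieske iron-sulfur protein and CYT1 cytochrome c1, while the core protein COR1 lay at 0.77, QCR2, QCR7 and QCR9 between 0.92 and 0.94 and the acidic subunit QCR6 at −0.05. The 8 subunits of complex IV other than COX5B and COX26 lay between −0.40 (COX9) and 0.77 (COX7), and the 13 of the ATP synthase between −0.49 (ATP18) and 0.45. The internal NADH dehydrogenase NDI1 rose by 2.38 ± 0.07 on the log2 scale.

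**Figure D1:**
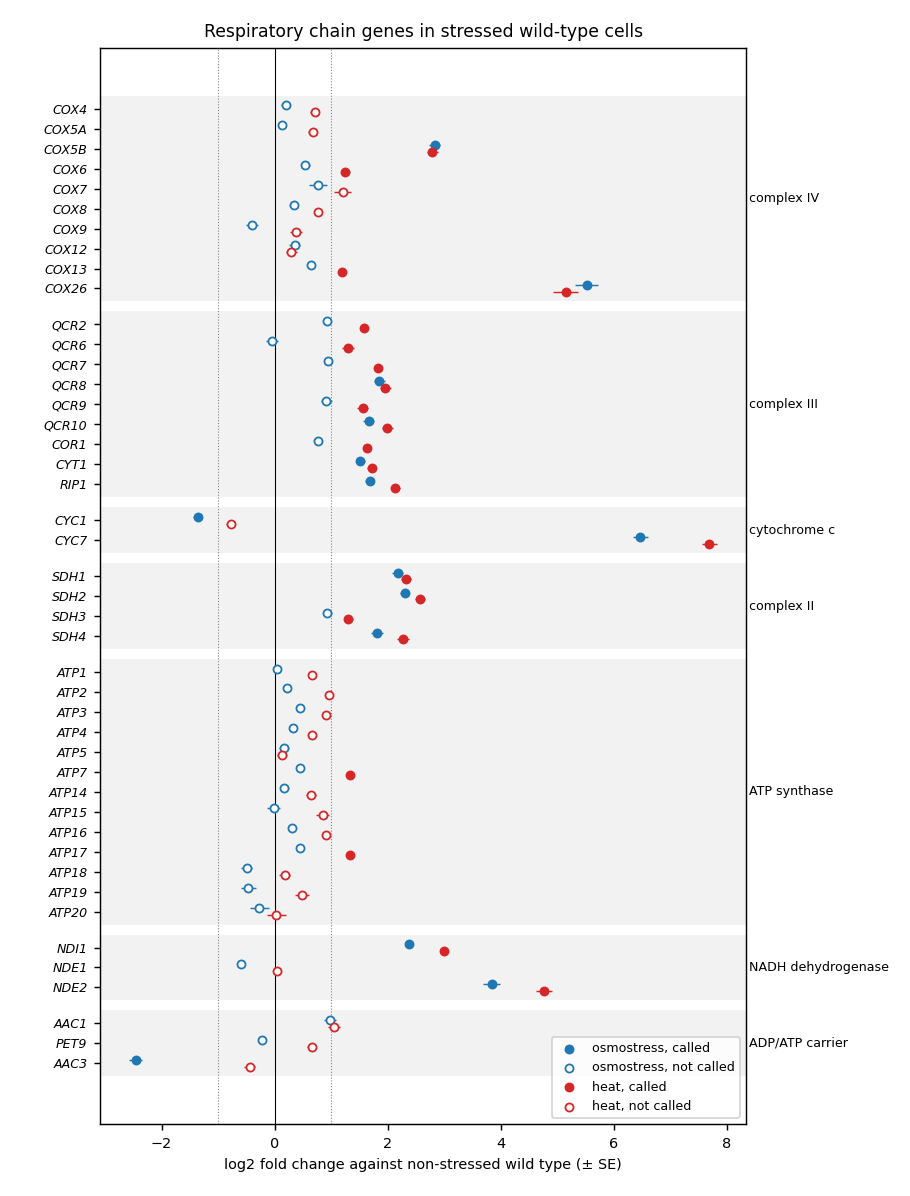
Log2 fold change of each of the 44 members against non-stressed wild type upon osmostress (blue) and heat (red), with standard errors and grouped by complex. Filled circles passed the test against a 2-fold change, whose bounds are the dotted lines. The ATP synthase lies between −0.49 and 0.45 upon osmostress, and CYC7 lies farthest to the right upon both stresses.

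Upon heat, 22 of the 44 members rose past 2-fold and none fell, where 15.8% and 15.4% of all genes tested did so (edgeR glmTreat). Against 0, 38 members were higher and 2, CYC1 and AAC3, were lower, where 41.7% and 36.4% of all genes tested were. The median log2 fold change was 1.20 over the members and 0.08 over all genes tested. All 9 subunits of complex III and all 4 of complex II passed, with NDI1, NDE2, CYC7, COX5B, COX26, COX6, COX13, ATP7 and ATP17. Without the 2 libraries that stand apart, the counts were 22 and 0. The heat and osmostress responses share the non-stressed wild-type libraries.

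CYC7 stood at 337 CPM in each of the 3 heated libraries, a log2 fold change of 7.70 ± 0.13 (adjusted p = 2.07e-28, edgeR glmTreat). COX26 was at 15.4, 14.3 and 14.8 CPM (5.15 ± 0.21) and NDE2 at 69.4, 58.7 and 49.4 CPM (4.77 ± 0.15). None of these heated libraries overlapped the non-stressed ones, for genes picked as those that rose most. COX5B reached 118, 113 and 116 CPM, at 2.79 ± 0.10 close to its value upon osmostress, and COX5A reached 141, 146 and 138 CPM (0.68 ± 0.08), so that COX5B made up 44.98% ± 1.15 of the pair. CYC1 was at 57.0, 61.9 and 52.9 CPM, below every non-stressed library, but its log2 fold change of −0.78 ± 0.08 did not pass the 2-fold test. CYC7 made up 85.5% ± 1.0 of the cytochromes c.

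SDH2 rose by 2.58 ± 0.08 and SDH1 by 2.32 ± 0.09 on the log2 scale upon heat, and RIP1 by 2.13 ± 0.08, the highest in complex III, whose subunits lay between 1.31 (QCR6) and 2.13. NDI1 went from 48.6, 46.96 and 48.1 CPM to 406, 398 and 348 CPM, an 8.02-fold higher level. The ATP synthase subunits all lay above 0, between 0.03 (ATP20) and 1.33 (ATP7 and ATP17), with a median of 0.67 against 0.17 upon osmostress. Among the carriers, AAC1 was at 41.2, 43.8 and 39.0 CPM (1.05 ± 0.11), PET9 at 929, 907 and 790 CPM (0.65 ± 0.08) and AAC3 at 24.6, 27.2 and 23.3 CPM (−0.44 ± 0.10), none past 2-fold. NDE1, at 452, 473 and 427 CPM, lay within its non-stressed range at 0.04 ± 0.07, a difference whose sign turned under other scalings.

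Compared directly, with no library in common, 36 members were higher and 1, COX26, lower upon heat than upon osmostress, where 29% of all genes tested were higher and 34% lower (edgeR, adjusted p under 0.05). The median difference was 0.56 on the log2 scale, but library totals in place of TMM, which move the median of all genes by −0.33, gave 25 higher and 6 lower. Of all 6209 genes tested, 861 were then higher and 3321 lower. AAC3 differed most, at 23.3 to 27.2 CPM upon heat against 6.12 to 6.24 CPM upon osmostress (2.02 ± 0.11, adjusted p = 1.71e-15). QCR6 followed, at 139, 133 and 132 CPM against 52.3, 52.4 and 53.3 CPM (1.35 ± 0.11), and then CYC7 (1.23 ± 0.08). COX26 was lower upon heat by a small margin (−0.37 ± 0.12, adjusted p = 0.00926). For COX5B (−0.04 ± 0.09), SDH1 (0.15 ± 0.09) and AAC1 (0.08) the difference did not pass. Without the 2 libraries that stand apart, 35 were higher and 1 lower. Temperature, time and salt all differ between the treatments.

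**Figure D2:**
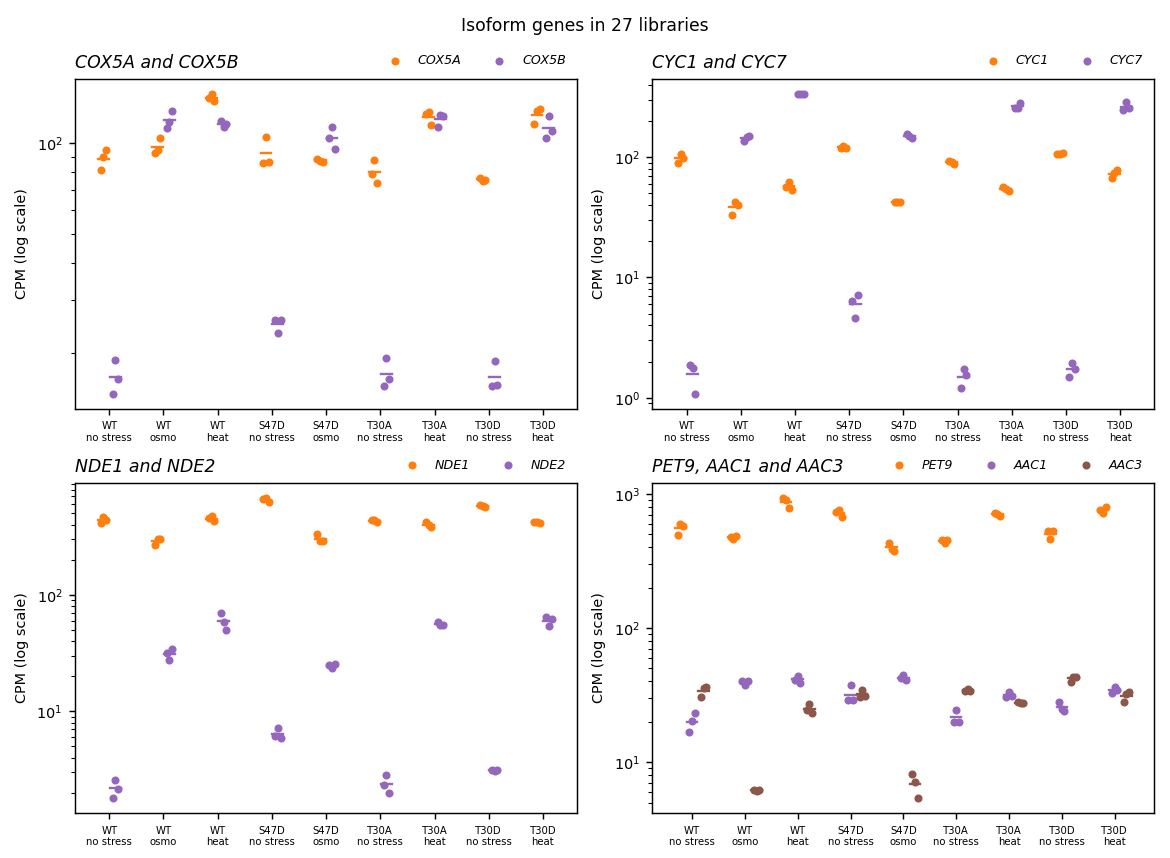
CPM on a log scale of the members of each isoform set in all 27 libraries, as points with the group mean as a bar, for 9 groups along the horizontal axis. COX5B, CYC7 and NDE2 (purple) rise in every stressed group, and AAC3 (brown) is at 5.42 to 8.11 CPM in the osmostressed libraries.

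AGGGG stood in the windows of 8 of the 12 members that rose upon osmostress (66.7%) and of 9 of the other 32 (28.1%). For heat these were 11 of 22 (50.0%) and 6 of 22 (27.3%). CCAAT stood in 8 of the 12 (66.7%) and 30 of the other 32 (93.8%) for osmostress, the windows of CYC7, COX26, NDE2 and CYT1 being without it, and in 18 of 22 (81.8%) and 20 of 22 (90.9%) for heat. ATTGTT stood in 2 of the 12 (16.7%) and 10 of the other 32 (31.2%) for osmostress, and in 4 of 22 (18.2%) and 8 of 22 (36.4%) for heat. In the stretches printed above, the AGGGG matches of CYC7 lie 336, 276 and 192 bases before the start codon and those of NDE2 153 and 138. These shares are counts over few genes and were not tested.

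Genes that act with the respiratory chain were counted from lists that were also chosen with results known. Of the 5 other enzymes that feed the quinone or cytochrome c pools, GUT2 (glycerol-3-phosphate dehydrogenase, log2 fold change 2.64 upon osmostress and 2.75 upon heat), CYB2 (lactate dehydrogenase, 2.65 and 3.76) and MCR1 (NADH-cytochrome b5 reductase, 3.27 and 3.18) rose upon both, and DLD1 and DLD2 passed upon neither. Of 11 other genes of the ATP synthase (assembly factors, inhibitors and TIM11, subunit e), 3 rose past 2-fold upon both stresses, the inhibitor and the factors that act with it: INH1 (1.86 and 2.75), STF1 (2.36 and 2.97) and STF2 (4.73 and 5.81). Of 19 assembly factors of complex IV, 2 rose upon osmostress and 6 upon heat, where 12.8% and 15.8% of all genes tested rose. SDH6, an assembly factor of complex II, rose by 2.31 and 2.53. None of the 7 genes for the Hap2/3/4/5 and Hap1 regulators and the repressors ROX1 and MOT3 passed the 2-fold test upon either stress. Against 0, HAP1 (0.37 upon osmostress and 0.61 upon heat), HAP2 (1.04 and 1.16), HAP4 (0.43 and 0.93) and HAP5 (0.61 and 0.86) were higher upon both, where 40.3% and 41.7% of all genes tested were, and HAP3 (−0.47) and ROX1 (−0.43) were lower upon osmostress, where 36.2% were (edgeR). The 7 mitochondrially encoded subunits had too few counts in these poly(A)-selected libraries to be tested.

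The next comparisons asked what each H4 change does without stress. In H4-S47D cells, 31 members stood above wild type and 1 below it, where 26.6% and 25.3% of all genes tested were so called (edgeR, adjusted p under 0.05 against 0). The median difference was 0.30 on the log2 scale over the members and 0.00 over all genes. Only COX26, CYC7 and NDE2 were also higher by over 2-fold and none lower, where 7.86% and 0.628% of all genes tested were, and the others called higher lay between 0.18 (ATP16) and 0.96 (SDH4). With library totals in place of TMM, which moves the median of all genes up by 0.18, the count lower was 0, where 670 of all 6209 genes tested were lower. Leaving out wild-type library 3 or H4-S47D library 2 or 3 made the count lower 2.

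COX26 was at 4.17, 4.16 and 4.27 CPM in H4-S47D against 0.25 to 0.546 CPM in wild type, a difference of 3.33 ± 0.25 (adjusted p = 2.56e-12, edgeR). CYC7 was at 6.32, 4.61 and 7.09 CPM against 1.08 to 1.86 (1.89 ± 0.17), and NDE2 at 6.15, 7.20 and 5.84 CPM against 1.80 to 2.55 (1.56 ± 0.17). These genes were picked by the size of their called differences. Their groups did not overlap, yet each H4-S47D level remained below the lowest stressed wild-type library. All 4 subunits of complex II were higher: SDH1 at 153, 187 and 146 CPM (0.89 ± 0.09), SDH2 at 86.4, 84.2 and 74.0 CPM (0.90 ± 0.08), SDH4 at 166, 184 and 147 CPM (0.96 ± 0.11) and SDH3 at 250, 260 and 207 CPM (0.53 ± 0.08).

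Of complex III, 7 of 9 subunits were higher, by 0.28 (COR1) to 0.60 (CYT1). Of the ATP synthase, 8 of 13 were, led by ATP7 at 121, 123 and 119 CPM against 81.6 to 82.4 CPM (0.56 ± 0.06). ATP20, subunit g of the ATP synthase, was the member called lower, at 8.23, 9.23 and 10.5 CPM against 16.6, 12.7 and 13.8 CPM (−0.62 ± 0.17, adjusted p = 0.00288). Of complex IV, 5 of 10 were higher, COX5B at 25.7, 23.4 and 25.8 CPM (0.58 ± 0.10) among them, while COX5A at 85.8, 105.004 and 86.5 CPM did not pass. CYC1 was at 120, 125 and 120 CPM (0.31 ± 0.08), the opposite sign to its change upon stress, and NDE1 at 668, 677 and 626 CPM (0.58 ± 0.07) and PET9 at 731, 764 and 670 CPM (0.38 ± 0.08) were higher too. AAC1 was at 29.1, 37.4 and 29.0 CPM (0.68 ± 0.11) and AAC3 at 30.8, 34.3 and 31.2 CPM, within the wild-type range for AAC3.

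HAP4, the subunit that activates the Hap complex, was higher in H4-S47D (0.53), and HAP1, HAP3, HAP5, ROX1 and MOT3 were lower, at −0.39 to −0.93 on the log2 scale. Of 14 genes under glucose repression, 11 were higher, such as the malate synthase MLS1 (2.86), the gluconeogenic FBP1 (2.81) and the hexokinase HXK1 (2.33), and 1, GUT1, was lower (−0.37), where 26.6% and 25.3% of all genes tested were higher and lower. All 3 markers of MATalpha cells were higher, the pheromone genes MFALPHA1 (3.35 on the log2 scale) and MFALPHA2 (2.25) and the receptor gene STE3 (0.93), with a sum of 24.7 to 28.8 CPM against 8.91 to 9.92 CPM in wild type. Of the 6 MATa markers, 3 were lower and none higher, with a sum of 1496 to 1625 CPM against 1899 to 1963 CPM. Their part in the differences of the members was not tested. As a share of raw totals, without TMM, the members took 0.618% ± 0.021 in H4-S47D and 0.427% ± 0.031 in wild type without stress. In H4-T30D and H4-T30A without stress the shares were 0.487% ± 0.006 and 0.416% ± 0.006.

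**Figure D3:**
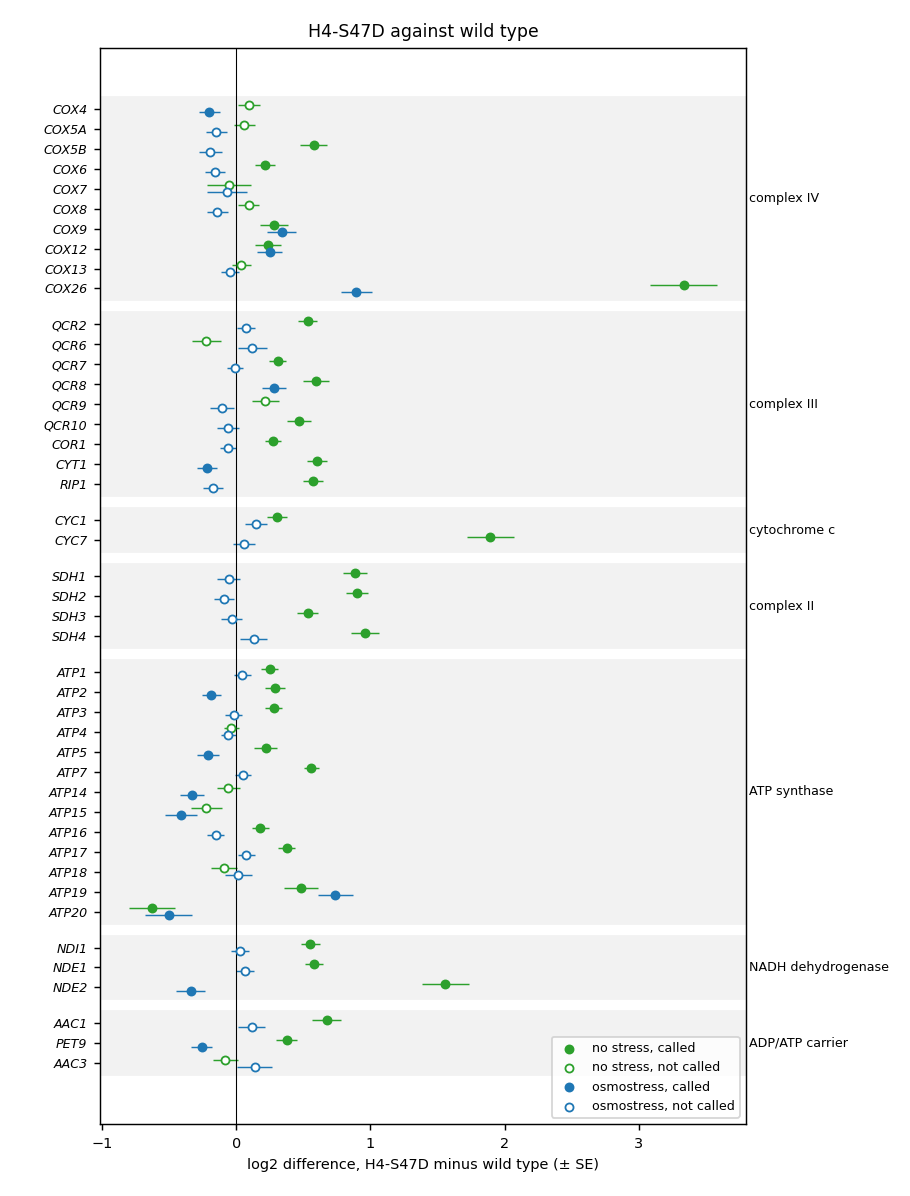
Log2 difference between H4-S47D and wild type for each member without stress (green) and upon osmostress (blue), with standard errors. Filled circles passed the test against 0. Without stress 31 members lie to the right of 0 and passed, led by COX26 at 3.33, and upon osmostress 5 do.

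Upon osmostress, most of these differences were not seen. Of the 44 members, H4-S47D had 5 above and 9 below wild type, where 15.8% and 24% of all genes tested were, but this direction depended on the scaling. Upper-quartile scaling, which moves the median of all genes up by 0.13, gave 14 higher and 0 lower, where 1613 and 698 of all 6209 genes tested were. Library totals, which move it up by 0.25, gave 25 higher and 0 lower, where 2232 and 325 of all genes tested were. Without the 2 libraries that stand apart, 4 were higher and 7 lower. Of the MATalpha markers, MFALPHA1 (1.19) and MFALPHA2 (2.84) were higher in H4-S47D, with a sum of the 3 of 15.6 to 17.4 CPM against 8.01 to 13.2 CPM, and 2 of the 6 MATa markers were lower, and their part was not tested. Leaving out wild-type osmostress library 2 left 3 higher. Leaving out wild-type library 1 left 3 lower, and H4-S47D library 2 or 3 left 4 and 3 lower.

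COX26 was again the highest, at 34.6, 34.6 and 38.1 CPM against 17.7 to 21.5 CPM (0.90 ± 0.11, adjusted p = 4.77e-07, edgeR). ATP19, subunit k of the ATP synthase, was at 23.8, 22.9 and 20.7 CPM against 13.8, 11.5 and 15.0 CPM (0.74 ± 0.13), and COX9 at 54.4, 64.6 and 64.0 CPM against 48.4, 44.2 and 52.5 CPM (0.34 ± 0.11). The largest decreases were those of ATP20, at 9.42, 8.06 and 7.88 CPM against 15.4, 11.5 and 8.44 CPM (−0.50 ± 0.17), ATP15, at 43.6, 41.8 and 47.6 CPM against 68.9, 52.9 and 54.6 CPM (−0.41 ± 0.12), and NDE2, at 25.0, 23.4 and 25.3 CPM against 27.6 to 34.4 CPM (−0.34 ± 0.11). ATP20 overlapped between the groups. SDH1, at 379, 390 and 373 CPM, and CYC7, at 155, 150 and 145 CPM, differed from wild type by −0.06 ± 0.09 and 0.06 ± 0.08.

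The interaction asks whether the change upon osmostress differs between H4-S47D and wild type. It was below 0 for 26 of the 44 members and above 0 for none that passed, where 20.7% and 12.9% of all genes tested were called below and above (edgeR, adjusted p under 0.05). The median was −0.33 over the members and −0.06 over all genes. Under the other scalings 19 to 25 members were below 0, and 1 passed above 0 with DESeq2 size factors or upper-quartile scaling. Of all 6209 genes tested, 906 to 1040 were called below 0 and 800 to 1023 above under these scalings. Leaving out wild-type library 3 or H4-S47D library 3 without stress made 1 member pass above 0, and without the 2 libraries that stand apart the counts were 26 and 0. COX26 had −2.44 ± 0.29, NDE2 −1.90 ± 0.21 and CYC7 −1.83 ± 0.19, followed by SDH2 (−0.99 ± 0.11), SDH1 (−0.94 ± 0.12), SDH4 (−0.83 ± 0.15) and CYT1 (−0.82 ± 0.11). All 4 subunits of complex II and all 3 NADH dehydrogenases passed. For these genes the level before stress differed more between the strains than the level upon stress did, as the values above show: SDH2 was at 74.0 to 86.4 CPM in H4-S47D and 41.0 to 48.7 in wild type before, and at 197 to 207 and 208 to 221 CPM upon osmostress.

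In H4-T30A cells without stress, 1 member was higher and 1 lower, where 0.612% and 0.773% of all genes tested were. COX26 was also over 2-fold higher and no member over 2-fold lower, where 0.0644% and 0.0805% of all genes tested were. COX26 was at 0.962, 1.42 and 0.843 CPM (1.35 ± 0.34, adjusted p = 0.039, edgeR), from 11 to 17 counts a library, and PET9 at 450, 429 and 456 CPM against 496, 600 and 573 CPM (−0.32 ± 0.08, adjusted p = 0.0377). Neither call was firm: PET9 was not called with library totals, COX26 was lost without wild-type library 3 or any H4-T30A library, and the count of lower members was 4 without wild-type library 1 and 0 without wild-type library 2 or any H4-T30A library. The isoforms otherwise lay near wild type, with CYC7 at 1.20, 1.75 and 1.53 CPM and NDE2 at 2.34, 2.83 and 1.99 CPM.

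Upon heat, H4-T30A had 17 members below wild type and none above, where 4.54% and 2.09% of all genes tested were, but the count lower was 7 with upper-quartile scaling and 0 with library totals, which move the median of all genes up by 0.12. Of all 6209 genes tested, 126 and 86 were lower in these settings. The decreases were small, between −0.20 and −0.39 on the log2 scale. The median was −0.20 over the members and −0.04 over all genes. ATP15, subunit epsilon of the ATP synthase, was at 90.9, 82.9 and 73.0 CPM against 114, 114 and 96.0 CPM (−0.39 ± 0.11, adjusted p = 0.0317, edgeR), AAC1 at 30.6, 33.1 and 31.1 CPM against 39.0 to 43.8 CPM (−0.39 ± 0.10), and ATP18 at 53.7, 51.6 and 46.4 CPM against 61.6, 64.3 and 67.9 CPM (−0.35 ± 0.10). The groups of these genes did not overlap, but the genes were picked by the size of their called decreases. CYC7, at 258, 259 and 285 CPM against 337 CPM, NDI1 and PET9 were also lower. Leaving out a library of wild type (1 or 2) left 7 and 5 members lower, leaving out H4-T30A library 2 or 3 left 8 and 5, and without the 2 libraries that stand apart 16 were lower.

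No member passed the test of the interaction between H4-T30A and heat, where 0.177% and 0.306% of all genes tested were above and below 0 (edgeR). At an unadjusted p under 0.05 there were 5, all below 0, and DESeq2 called none. COX26 had the lowest value, −1.28 ± 0.36 (adjusted p = 0.126), and leaving out wild-type heat library 3 made 1 member pass. Without the 2 libraries that stand apart, 0 members passed.

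In H4-T30D cells without stress, 6 members were higher and 11 lower, where 16.3% and 15.3% of all genes tested were, but this direction depended on the scaling. Library totals, which move the median of all genes up by 0.20, gave 16 higher and 0 lower, where 2088 and 256 of all 6209 genes tested were. COX26 was at 1.27, 1.36 and 1.89 CPM against 0.25 to 0.546 CPM (1.87 ± 0.30, adjusted p = 1.85e-05, edgeR), from 19 to 39 counts a library, NDE2 at 3.11, 3.07 and 3.15 CPM (0.52 ± 0.20), NDE1 at 586, 584 and 569 CPM (0.40 ± 0.07), and AAC1, AAC3 and SDH1 were higher by 0.30 to 0.37. COX26 was the member over 2-fold higher, with none over 2-fold lower, where 2.96% and 0.29% of all genes tested were. Its calls in H4-S47D, H4-T30A and H4-T30D without stress, and its interaction values, all rest on the same wild-type libraries without stress, where it had few counts. The 11 lower members lay between −0.17 and −0.53, with COX7 at 8.55, 11.2 and 9.25 CPM against 14.8, 12.6 and 14.2 CPM (−0.53 ± 0.17), QCR7 at 45.7, 49.2 and 46.3 CPM against 56.3, 62.9 and 61.1 CPM (−0.35 ± 0.06), and COX12 at 20.1, 23.4 and 21.6 CPM against 30.5, 27.5 and 24.6 CPM (−0.35 ± 0.10). Of the 11, 6 belonged to complex IV and 4 to the ATP synthase. The MATalpha markers MFALPHA1 (2.099), MFALPHA2 (1.16) and STE3 (0.60) were higher in H4-T30D, with a sum of 16.3 to 18.1 CPM against 8.91 to 9.92 CPM, and all 6 MATa markers were lower, with a sum of 1471 to 1575 CPM, and their part was not tested. Fitted on its own 6 libraries, the comparison called 3 members lower. Leaving out wild-type library 1 left 3 higher, and leaving out H4-T30D library 1 or 2, the latter the one with MET15 counts, left 7 lower.

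Upon heat, 2 members were higher and 7 lower in H4-T30D, where 5.01% and 8.7% of all genes tested were, and the count lower was 4 with upper-quartile scaling and 3 with library totals. Of all 6209 genes tested, 241 and 210 were lower in these settings. CYC1 was at 67.5, 73.8 and 78.0 CPM against 57.0, 61.9 and 52.9 CPM (0.35 ± 0.08, adjusted p = 0.00297, edgeR), and AAC3 at 28.1, 32.2 and 33.3 CPM against 24.6, 27.2 and 23.3 CPM (0.32 ± 0.10). CYC7 was at 246, 286 and 256 CPM against 337 (−0.36 ± 0.08), COX13 at 99.3, 115 and 108 CPM against 135, 137 and 132 CPM (−0.33 ± 0.07), and RIP1 at 224, 233 and 225 CPM against 298, 304 and 256 CPM (−0.33 ± 0.07). These 5 were picked by the size of their called differences. Their groups did not overlap, which after such a choice adds no support of its own. Without the 2 libraries that stand apart, 1 was higher and 10 lower. Leaving out wild-type heat library 3 alone left 1 higher and 12 lower, and leaving out wild-type library 1 or H4-T30D library 2 or 3 left 1 higher.

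The interaction between H4-T30D and heat was below 0 for 5 of the 44 members and above 0 for none that passed, where 9.62% and 4.4% of all genes tested were. The count below 0 is thus near the share of all genes. With library totals the count was 11, where 898 of all 6209 genes tested were below 0. The 5 were COX26 (−1.80 ± 0.33, adjusted p = 0.000351, edgeR), AAC1 (−0.64 ± 0.15), NDE1 (−0.51 ± 0.09), SDH1 (−0.46 ± 0.12) and NDI1 (−0.44 ± 0.10). AAC1 was at 28.1, 25.0 and 24.2 CPM in H4-T30D without stress and at 32.8, 36.2 and 34.2 CPM upon heat, and NDE1 fell to 423, 418 and 416 CPM upon heat. Leaving out wild-type heat library 3 made the count 8, and without the 2 libraries that stand apart it was 5.

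**Figure D4:**
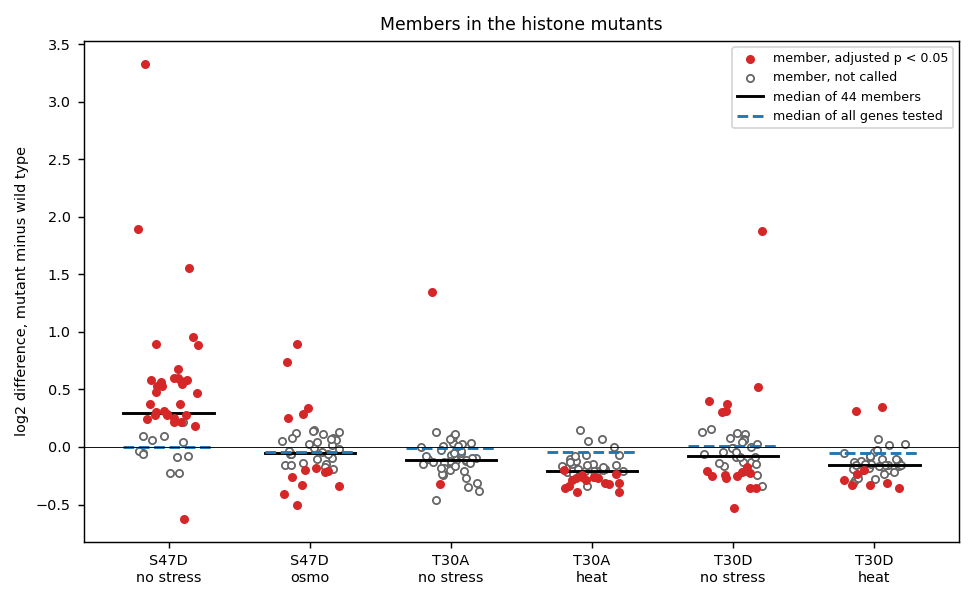
Log2 difference between each H4 mutant and wild type for the 44 members, without stress and upon stress, as 1 point a gene (red where adjusted p was under 0.05), with the median of the members (black) and of all genes tested (blue, dashed). The members' median is 0.30 in H4-S47D without stress and lies between −0.20 and −0.05 in the other 5 comparisons. These 5 comparisons depend on the scaling, as given in the text. With library totals the members' median is above 0 for H4-S47D upon osmostress (0.20) and for H4-T30D (0.13) and H4-T30A (0.003) without stress. It is then −0.08 for H4-T30A and for H4-T30D upon heat, and 0.48 for H4-S47D without stress.

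The spread over libraries differed between complexes. The median log2 CPM of complex II, relative to its mean over all libraries, ran from −1.41 to −1.07 in wild type without stress, from 0.64 to 0.75 upon osmostress and from 0.79 to 1.10 upon heat. For the ATP synthase these ranges were −0.23 to −0.19, −0.09 to 0.05 and 0.48 to 0.60. H4-S47D without stress, at −0.52 to −0.19 for complex II, lay between non-stressed and stressed wild type.

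**Figure D5:**
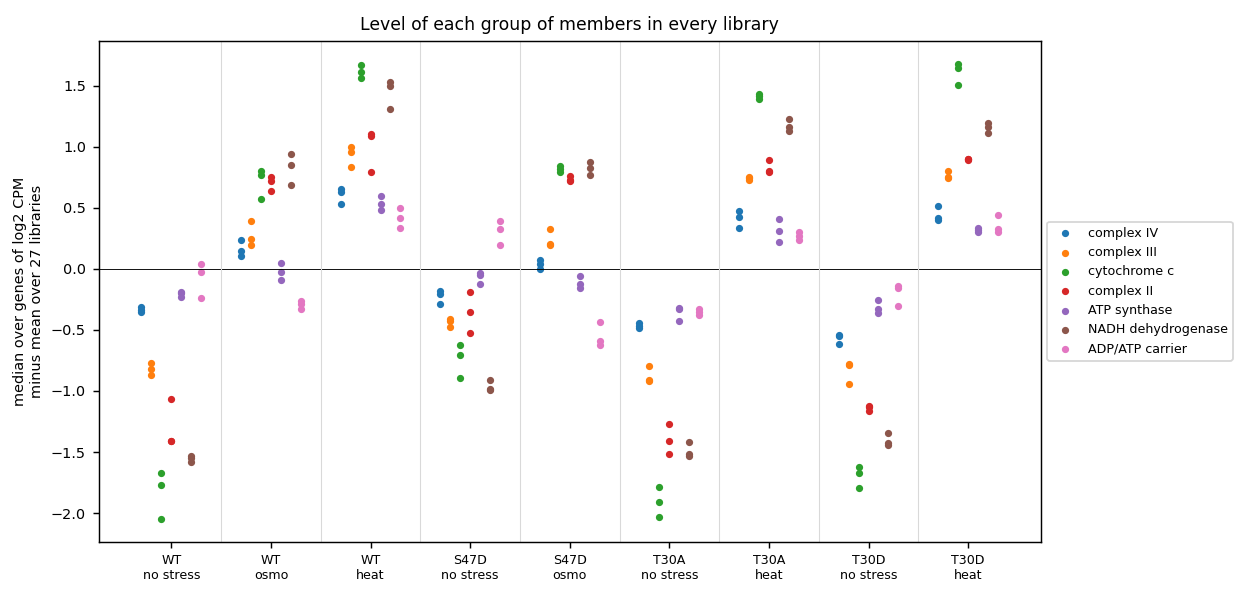
Median over the genes of each group of members of log2 CPM minus the gene's mean over the 27 libraries, with 1 point a library. Cytochrome c, NADH dehydrogenases and complex II span the widest range, and the ATP synthase stays between −0.43 and 0.60. The cytochrome c value is the mean of 2 genes that went opposite ways in wild type upon osmostress (log2 fold changes −1.36 and 6.47). That of the NADH dehydrogenases is the middle of 3 genes, which there lay between −0.60 and 3.84.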

How the data were processed

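Poly(A) RNA libraries were read as 50-base single ends. Per the labels and the study's methods, the authors aligned reads with TopHat2 2.1.0 to sacCer3, the same assembly as R64, and counted unique reads per gene of Ensembl R64-1-1 with featureCounts 1.5.1. The strand setting is not given in the sources used here. The deposited values are raw counts for 6746 genes, and no depth correction had been made. The authors tested with DESeq2 1.14.1.

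Counts were fitted with edgeR 4.0.16 (R 4.3.3): filterByExpr with a minimum count of 10, TMM scaling, 1 mean for each of 9 groups over 27 libraries, quasi-likelihood tests and Benjamini-Hochberg adjustment over 6209 genes at 0.05. Wild-type responses were tested against a log2 fold change of 1 (glmTreat), all others against 0. The steps were tested on simulated data. DESeq2 1.42.0, other scalings and filters, a replicate block and leaving out libraries were alternatives.

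Of the file's identifiers, 6025 matched a RefSeq locus tag and 721 did not, so overlaps with the latter were not checked. Motif windows came from RefSeq coordinates on R64. Sequences are from that assembly. Members and lists were chosen with earlier results of these data known. Values in each library are printed for those 3 members that moved most, up and down, among the calls of a comparison, for isoforms and for members under 10 counts, beside further subunits of complex II and others chosen after their values were seen.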

Additional observations from a re-analysis of the deposited data

Results flagged for a closer look

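The response to stress differed between a mutant and wild type for 31 values, by edgeR's test of the interaction (adjusted p under 0.05 over all genes tested). Each value below is the change upon stress in the mutant minus that in wild type, on the log2 scale. Upon osmostress in H4-S47D there were 26, all below 0, where 20.7% of all genes tested were called below 0 and 12.9% above. In complex IV and cytochrome c these were COX26 (−2.44), CYC7 (−1.83), COX5B (−0.77), COX6 (−0.37) and COX4 (−0.30). In complex III they were CYT1 (−0.82), RIP1 (−0.74), QCR10 (−0.53), QCR2 (−0.46), COR1 (−0.33) and QCR7 (−0.32). In complex II they were SDH2 (−0.99), SDH1 (−0.94), SDH4 (−0.83) and SDH3 (−0.57). Among the dehydrogenases and carriers they were NDE2 (−1.90), PET9 (−0.63), AAC1 (−0.56), NDI1 (−0.52) and NDE1 (−0.51). In the ATP synthase they were ATP7 (−0.51), ATP2 (−0.47), ATP5 (−0.43), ATP16 (−0.33), ATP17 (−0.30) and ATP3 (−0.30). Upon heat in H4-T30D there were 5, COX26 (−1.80), AAC1 (−0.64), NDE1 (−0.51), SDH1 (−0.46) and NDI1 (−0.44). Here 9.62% of all genes tested were called below 0 and 4.4% above, so that 5 of the 44 members is near the share of all genes. Both COX26 values rest on a mean under 10 counts in wild type without stress. The H4-S47D libraries also differ from the others in TRP1 and URA3 counts, and the part of this in the values was not tested.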

How the results depend on the processing

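The wild-type responses had 12 higher and 2 lower upon osmostress and 22 and 0 upon heat in every fit that left out a library. Library totals gave 17 higher and 1 lower upon osmostress, upon heat DESeq2 gave 19 higher and the libraries of the comparison alone 21, and tests against 0 gave 30 and 7, and 38 and 2. In H4-S47D without stress, DESeq2 size factors and DESeq2 gave 2 lower, library totals 0, and a 2-fold limit 3 higher and 0 lower. In H4-T30A without stress, the libraries of the comparison alone gave 0 and 0, DESeq2 size factors 2 lower, DESeq2 7, library totals 0 and a 2-fold limit 0. In H4-T30D without stress, library totals gave 16 higher and 0 lower, the libraries of the comparison alone 3 lower, and a 2-fold limit 1 and 0. For the H4-S47D interaction, DESeq2 size factors, upper-quartile scaling and DESeq2 each gave 1 above 0, and for the H4-T30D interaction library totals gave 11 below. Heat against osmostress had 6 lower with library totals. H4-S47D upon osmostress had 14 higher and 0 lower with upper-quartile scaling, 25 and 0 with library totals, and 5 lower from its own libraries. H4-T30A upon heat had 7 lower with upper-quartile scaling, 0 with library totals and 6 from its own libraries. H4-T30D upon heat had 4, 3 and 4 lower in the same settings, and 1 higher without both libraries that hold counts of deleted genes, an alternative chosen after seeing the data. The counts over all genes tested moved with the settings too. Upon osmostress in wild type, library totals gave 1079 higher and 563 lower over all genes, against 795 and 778 in the main fit. Fitted on its own libraries, H4-S47D without stress gave 1191 higher and 922 lower over all genes, against 1654 and 1571. H4-T30A without stress then gave 1 and 3, against 38 and 48. The causes of these shifts were not tested.

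Leaving out 1 library at a time gave 28 to 30 higher and 1 to 2 lower in H4-S47D without stress, 0 to 1 and 0 to 4 in H4-T30A, and 3 to 5 and 7 to 10 in H4-T30D. The interactions had 25 to 27 below and 0 to 1 above 0 (H4-S47D), 0 to 1 below (H4-T30A) and 4 to 8 below (H4-T30D). Heat against osmostress had 35 to 36 higher and 1 lower. Upon stress, H4-S47D had 3 to 5 higher and 3 to 7 lower, H4-T30A 5 to 16 lower, and H4-T30D 1 to 2 higher and 5 to 12 lower.

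Of 910 values of named members under an alternative, 834 kept their direction and side of the threshold, 67 no longer passed, 1 passed newly and 8 changed sign. PET9 upon osmostress was at 0.0564 with library totals. NDE1 upon heat was at −0.0238 with DESeq2 size factors, −0.024 with DESeq2, −0.0426 with upper-quartile scaling, −0.0138 with library totals, −0.0417 from its own libraries, and between −0.00444 and 0.0762 with 1 library left out (−0.00444 without non-stressed library 1, −0.000339 without heat library 2). Replicate numbers do not pair the libraries (same-numbered deviations correlated at −0.405 to 0.146, over 0.1 in 2 of 36 pairs). With the replicate block, the H4-S47D interaction had 25 below 0 and the wild-type responses 12 and 2, and 22 and 0. Depth limits COX26 and CYC7 most, at few counts without stress.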
